A study of Caenorhabditis elegans with 27 samples.

Results

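Whole Caenorhabditis elegans worms of the wild-type strain N2 that had been fed black rice extract (BRE) for 11 days after the L4 larval stage were compared with N2 worms fed BRE for 6 days after L4, an ageing step within extract-fed animals. The libraries were chosen by the diet and day in their labels, which gave 3 BRE day 11 and 3 BRE day 6 libraries, 6 of the 27 libraries sequenced. The other libraries used here were 3 each from BRE worms of days 17 and 15, and 3 each from worms fed OP50 alone at days 11 and 6. Libraries from OP50 worms of days 17, 15 and 1 entered the common fit and are given as levels for a few genes. All worms started as synchronized L4 larvae and were kept at 20 °C on nematode growth medium with Escherichia coli OP50, the standard laboratory food, so the BRE groups ate bacteria with extract and the OP50 groups ate the bacteria without it. The labels list extract concentrations of 0, 0.42, 1.04 and 1.67 mg/mL and do not say which one the sequenced BRE worms received. Each library was made from whole-body RNA of about 1000 pooled worms. The sources used here do not say how the worms were kept apart from their own progeny.

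An adult C. elegans hermaphrodite fills much of its body with a germline, lays eggs in the first days of adulthood and then lives on without reproducing, while its intestine goes on making yolk lipoproteins. The collagen cuticle that covers the worm is made anew at each larval moult, and adults do not moult. Defence against swallowed bacteria rests on secreted lysozymes, lectins and small peptides of the intestine and epidermis, part of which depend on the p38 kinase PMK-1, and the levels of many of these genes are known to shift as worms age.

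The BRE day 11 libraries held 113.63 M, 152.09 M and 136.1 M counts and the BRE day 6 libraries 164.34 M, 139.06 M and 151.9 M. Of 46934 genes in the table, 19290 passed a filter on low counts and were tested. On the first principal component of all 27 libraries, which held 51% of the variance of log counts, the BRE day 11 libraries lay at -0.43, -19.7 and -18 and the BRE day 6 libraries between -111 and -94.6. BRE days 15 and 17 lay farther in the same direction, at 53.8 to 67.9 and 93.6 to 105. BRE day 11 replicate 1 stood apart from the other day 11 libraries on this axis. Marker genes for body wall muscle (23 tested), pharynx (16), intestine (16), epidermis (12) and neurons (24) were all counted in at least 1 of the 6 libraries.

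More genes rose than fell between day 6 and day 11 on BRE. At a Benjamini-Hochberg adjusted p under 0.05 in edgeR's quasi-likelihood test, 2444 genes were higher in BRE day 11 worms (12.7% of those tested) and 431 were lower (2.23%). Of these, 1963 rose and 118 fell by at least 2-fold. The median log2 difference of all tested genes, BRE day 11 minus day 6, was 0.21, and it was 0.13 with another scaling of the libraries (RLE), under which 2201 genes rose and 730 fell. The rises therefore made up 85% of calls with the first scaling and 75.1% with the second. A single gene's log2 difference had a median standard error of 0.301. Leaving out each of the 6 libraries in turn, 1026 of the 2444 rises and 133 of the 431 falls were called every time. The 3 day 11 libraries did not overlap the 3 day 6 libraries for 2279 of the rises and 420 of the falls. Among all 19290 tested genes, called or not, the day 11 libraries lay wholly above for 4044 and wholly below for 1834. In whole worms, fewer cells of a type and less RNA per cell cannot be told apart.

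The rises were most frequent among genes of low to middle level and the falls among genes of high level. With the tested genes cut into 4 equal groups by their mean level over the 6 libraries, not corrected for gene length, 592 rose and 8 fell in the lowest group, at up to 0.185 CPM (counts scaled by each library's total). In the second group 1044 rose and 50 fell, and in the third 706 rose and 141 fell. In the highest group, above 39.3 CPM, 102 rose and 232 fell, and the median log2 difference was -0.12, against 1.05 in the lowest group. From the lowest to the highest group, 12.3%, 21.7%, 14.6% and 2.11% rose, and 0.166%, 1.04%, 2.92% and 4.81% fell. The shares of gene lists and classes given below were not matched for level. Genes of the lowest group rest on few reads, and 112 of the rises had no count at all in the 3 day 6 libraries.

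**Figure D1:**
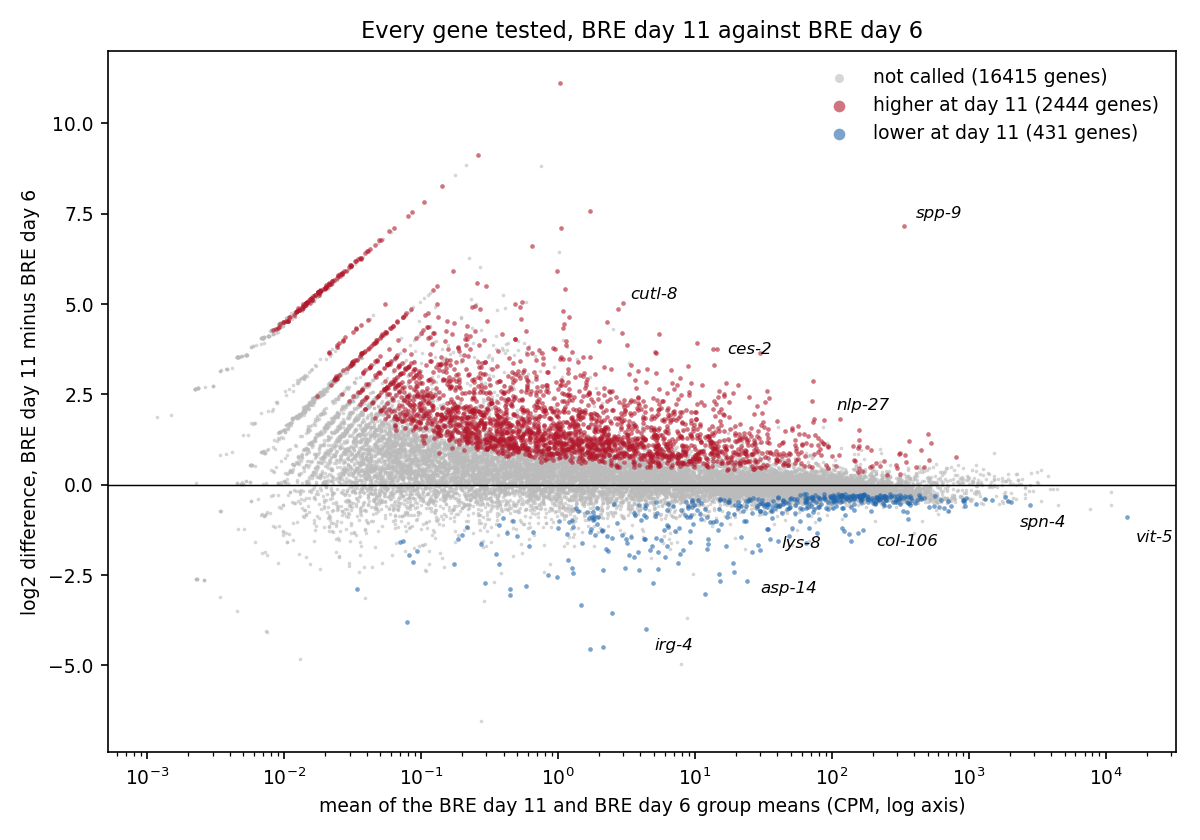
Each point is 1 of the 19290 tested genes, with its level (log axis, CPM, mean of the 6 libraries) on the x axis and its log2 difference, BRE day 11 minus BRE day 6, on the y axis. Red points are the 2444 genes called higher and blue points the 431 called lower; blue points lie mostly at high levels and red ones at low and middle levels, and the slanted stripe at the upper left holds genes without counts in the day 6 libraries.

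The largest rises and falls below were picked from called genes of at least 2-fold change and at least 5 CPM in 1 group. Their 3 day 11 and 3 day 6 libraries also had to lie fully apart, so that trait was set by the choice. The largest rise among them was that of spp-9 (chromosome X, 11487784 to 11488203). It encodes a saposin-like protein of the family that holds the worm's amoebapore-type antimicrobial peptides. It had 687, 137 and 1165 CPM in the BRE day 11 libraries, against 4.13, 3.29 and 6.57 CPM in the BRE day 6 libraries. The groups did not overlap, yet the day 11 libraries differed several-fold among themselves, and the log2 difference of 7.15 had a standard error of 1.28 (adjusted p = 0.00049). Its level was lower again later on the same diet, at 44.4 ± 23.8 CPM at day 15 and 9.08 ± 6.03 CPM at day 17 (SD, n = 3 each). A saposin-like gene close by on the X chromosome, spp-21 (11490130 to 11490494), had 10.4, 1.83 and 18.8 CPM at day 11, against 1.04, 0.455 and 0.22 CPM at day 6. In both genes replicate 2 was the lowest of the day 11 libraries. On chromosome V, spp-12 had 35.8, 8.91 and 35.5 CPM at day 11, against 1.65, 1.9 and 2.4 CPM at day 6, again with replicate 2 the lowest and no overlap. Its log2 difference was 3.75 with a standard error of 0.95 (adjusted p = 0.00941), and the call was lost without BRE day 6 replicate 1.

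Other large rises were more even between libraries. The bZIP transcription factor gene ces-2 (chromosome I, 14961497 to 14965361), which acts in the specification of cell death in particular neurons, had 23.8, 22.6 and 29.2 CPM at day 11, against 2.27, 2.65 and 2.66 CPM at day 6. The libraries of a day lay close together and far from those of the other day, with a log2 difference of 3.32 and a standard error of 0.31 (adjusted p = 1.6e-07). The linker histone gene hil-7 had 19.4, 14.1 and 14.9 CPM at day 11, against 1.92, 1.27 and 1.72 CPM at day 6 (log2 difference 3.30). The gene dma-1, whose leucine-rich repeat receptor shapes the dendrites of the PVD sensory neuron, had 8.23, 6.02 and 4.29 CPM at day 11, against 0.654, 0.502 and 0.687 CPM at day 6 (log2 difference 3.33, SE 0.20, adjusted p = 2.8e-10). As the choice required, the days did not overlap in these genes. The gene cpr-2, a cysteine protease of the cathepsin B type, had 98.7, 26 and 40.4 CPM at day 11, against 7.06, 5 and 1.15 CPM at day 6, with replicate 1 the highest of each day. The gene chtb-1 had 13.2, 10.8 and 5.06 CPM at day 11, against 0.729, 0.777 and 0.831 CPM at day 6.

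4 of the 12 largest rises belong to the body covering. The cuticlin-like gene cutl-8 (chromosome I, 8270304 to 8275706) had 4.87, 4.51 and 6.53 CPM at day 11, against 0.15, 0.22 and 0.179 CPM at day 6, a log2 difference of 4.86 with a standard error of 0.30 (adjusted p = 2.8e-10). The collagen gene col-121 had 6.6, 4.65 and 5.3 CPM at day 11, against 0.361, 0.29 and 0.254 CPM at day 6 (log2 difference 4.19). The gene acn-1, an angiotensin-converting-enzyme-like protein needed for moulting, had 14, 13 and 9.08 CPM at day 11, against 0.674, 1.22 and 2.12 CPM at day 6, and its patched-related neighbour in the ranking, ptr-4, had 7.98, 7.58 and 5.32 CPM, against 0.688, 1.03 and 0.625 CPM. All 4 were several-fold higher in every day 11 library than in any day 6 library. The exons of cutl-8, col-121 and acn-1 overlap those of T01G9.2, daf-15 and pnk-4. Since the sources used here do not give the strand setting of the counting, reads of such overlapping pairs, here and below, cannot be told apart. Among genes without a class symbol, F20E11.17, K09F6.13 and ZC21.10 rose most, with log2 differences of 5.04, 3.93 and 3.86.

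By the same rule, the largest falls included defence, lipid and detoxification genes. The infection response gene irg-4 (chromosome IV, 12435833 to 12438236), which depends on PMK-1, had 0.459, 0.304 and 0.791 CPM at day 11, against 5.75, 6.59 and 12.63 CPM at day 6. Every day 6 library was several-fold above every day 11 library, with a log2 difference of -4.0 and a standard error of 0.59 (adjusted p = 5.6e-05). On the same chromosome, dod-22 had 0.531, 0.972 and 2.37 CPM at day 11, against 4.47, 8.33 and 13 CPM at day 6, and irg-6 had 0.99, 0.891 and 2.24 CPM, against 6.74, 4.21 and 4.86 CPM. In both, replicate 3 was the highest day 11 library. The aspartyl protease gene asp-14 had 2.65, 5.2 and 12 CPM at day 11, against 36.1, 32.6 and 56.6 CPM at day 6 (log2 difference -2.66, SE 0.42, adjusted p = 0.00013). The delta-9 fatty acid desaturase gene fat-7 had 4.4, 2.79 and 6.54 CPM at day 11, against 17.8, 23.2 and 35.6 CPM at day 6 (log2 difference -2.48, SE 0.40, adjusted p = 0.00017). The days lay apart in each of these genes, as the choice required.

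The remaining large falls were enzymes and transporters. The D-amino acid oxidase gene daao-1 had 4.46, 3.84 and 4.1 CPM at day 11, against 19.7, 48.4 and 11.3 CPM at day 6, where replicate 2 was far above the others. The catechol-O-methyltransferase family gene comt-4 likewise peaked in day 6 replicate 2, with 2.49, 3.26 and 1.94 CPM at day 11, against 15.6, 32.1 and 15.3 CPM at day 6. The flavin-containing monooxygenase gene fmo-1 (log2 difference -2.37), the cytochrome P450 genes cyp-35A3 (-2.34) and cyp-29A4 (-2.31), the acyltransferase-like gene oac-6 (-2.0) and the SWEET family sugar transporter gene swt-3 (-1.91) followed, each with its 3 day 11 libraries below its 3 day 6 libraries. All 12 falls with a class symbol were called with each library left out in turn, and 11 of the 12 rises were, spp-12 being the other. Of the 3 largest falls without a class symbol, C14C6.5 and Y6E2A.4 kept their calls in these fits. C32H11.4, with 1.93, 1.31 and 14.8 CPM at day 11, against 33.3, 19.2 and 44.8 CPM at day 6, was called in 2 of the 6, its call being lost without BRE day 11 replicate 1 or 2 or BRE day 6 replicate 1 or 3. The exons of Y6E2A.4 overlap those of Y6E2A.5.

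**Figure D2:**
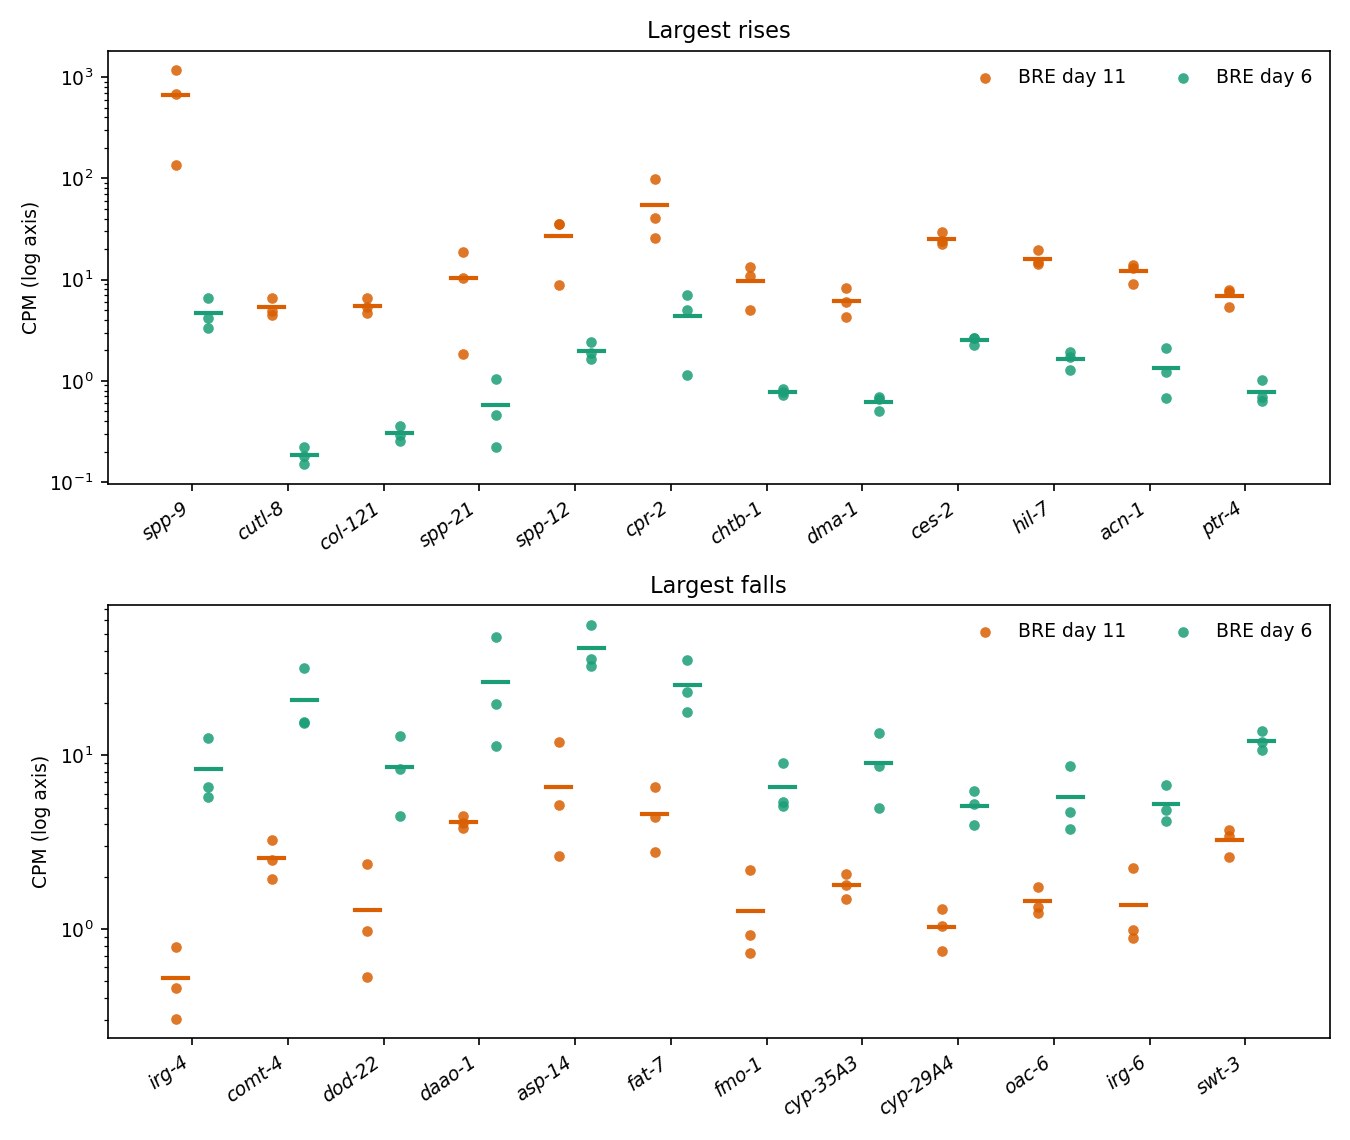
CPM (log axis) of the 12 largest rises (top row) and the 12 largest falls (bottom row) with a class symbol in each library, BRE day 11 left and BRE day 6 right of each pair, with a bar at the mean of 3. Genes were picked only where the days did not overlap. Among them, spp-9 runs from 137 to 1165 CPM at day 11, while the ces-2 libraries of a day lie close together.

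Genes of the larval moult held the highest share of rises among the 54 gene lists. Of 25 tested, 12 were higher in BRE day 11 worms (48%, against 12.7% of all genes) and none lower. The 25 hold collagen genes that shape the cuticle, proteins of its struts and the moulting genes named mlt. Their median log2 difference was 1.97, against 0.21 over all genes. The collagen gene dpy-2, which belongs to the set that forms the furrows of the cuticle, had 6.92, 5.91 and 4.91 CPM at day 11, against 0.525, 0.918 and 0.68 CPM at day 6 (log2 difference 3.06, SE 0.26, adjusted p = 5.8e-08). Its partners dpy-7 and dpy-3 had 3.31, 2.28 and 2.76 CPM and 2.51, 1.57 and 1.01 CPM at day 11, against 0.102, 0.416 and 0.206 CPM and 0.0204, 0.243 and 0.11 CPM at day 6. The moulting gene mlt-8 had 7.6, 6.11 and 5.47 CPM, against 0.797, 0.84 and 0.913 CPM. None of the 4 overlapped between days. The others that rose were noah-1, noah-2, dpy-10, dpy-17, sqt-3, mlt-9, mlt-11 and fbn-1. The summed level of the 25 genes was 198 to 391 CPM in the day 11 libraries, against 164 to 172 CPM in the day 6 libraries, and no member was at 0 in all 6 libraries. Of the 12 rises, 9 were called with every library left out in turn. Whether RNA of larvae had a part in these levels was not tested.

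The many collagens named by number moved in both directions. Of 156 listed, 139 were tested, of which 20 rose (14.4%, against 12.7% of all genes) and 8 fell (5.76%, against 2.23%). Their median log2 difference was 0.93 while their summed level was lower, at 488 to 739 CPM in the day 11 libraries, against 1125 to 1193 CPM in the day 6 libraries, so the median and the sum differed in sign. Among those that fell, col-106 had 96.9, 93.4 and 112 CPM at day 11, against 221, 240 and 255 CPM at day 6 (log2 difference -1.24, SE 0.23, adjusted p = 0.00073). Another that fell, col-135, had 0.063, 0.0878 and 0.0777 CPM, against 0.729, 0.392 and 0.405 CPM, and col-113 lay the other way at 0.927, 1.24 and 1.25 CPM, against 0.375, 0.353 and 0.192 CPM. As a share of all counts, these collagens held 0.0724%, 0.0592% and 0.0508% at day 11, against 0.107%, 0.103% and 0.108% at day 6, with no overlap (exact two-sided permutation test, p = 0.1, the smallest that 3 against 3 libraries allow). The count of rises ranged from 10 to 24 with 1 library left out, and was lowest without BRE day 11 replicate 1 and without BRE day 6 replicate 2.

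Hedgehog-related and patched-related genes, many but not all of which act in the epidermis and cuticle of this worm, rose in 19 of 79 tested. In 2, ptc-1 and ptr-2, they fell (median log2 difference of the 79 genes 0.69). The shares were 24.1% and 2.53%, against 12.7% and 2.23% of all genes. The rises numbered 10 without BRE day 6 replicate 1, and neither fall held in all 6 fits with a library left out. Their summed level was again lower at day 11, at 921 to 1420 CPM, against 1459 to 1674 CPM at day 6. The patched-related gene ptr-10 had 3, 2.95 and 2.28 CPM at day 11, against 0.484, 0.518 and 0.481 CPM at day 6, and its exons overlap those of F55F8.8. The warthog gene wrt-10, named after its values were seen, had 29.3, 23.6 and 34.7 CPM, against 5.82, 6.62 and 5.62 CPM (log2 difference 2.28, adjusted p = 0.00014). Among 12 epidermal marker genes 3 rose (25%, against 12.7% of all genes) and none fell. They were dpy-7, the metalloprotease gene hch-1 and the nuclear receptor gene nhr-25. The gene hch-1 had 29.5, 27.7 and 17.4 CPM at day 11, against 3.85, 5.75 and 4.39 CPM at day 6. For nhr-25 the levels were 9.41, 11.5 and 7.08 CPM, against 3.48, 3.32 and 2.77 CPM. The nhr-25 call held in 1 of the 6 fits with a library left out. The summed level of the epidermal markers overlapped between the days, at 487 to 801 CPM at day 11, against 572 to 635 CPM at day 6.

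Gene classes, the letters before the hyphen of a symbol, were ranked by their share of rises where at least 10 members were tested, as a description with no test. Of all genes tested, 12.7% rose and 2.23% fell. In order, the first 5 were wrt (6 of 10), dyf (7 of 12), cutl (16 of 28), abu (6 of 11) and bus (5 of 10). The class wrt is named warthog, dyf holds many cilium genes and cutl genes are cuticlin-like. The abu genes encode prion-like proteins, and mutants in bus genes resist a bacterium that sticks to the cuticle. Of the 28 tested cutl genes 16 were higher at day 11 and none was lower, and all 16 were also higher at day 11 on OP50. Without BRE day 6 replicate 1 the rises were 10 for cutl, 3 for wrt, 4 for dyf, 4 for abu and 3 for bus. Besides cutl-8, these held cutl-16, named after its values were seen, at 31.5, 30.5 and 26.5 CPM at day 11, against 4.80, 3.14 and 4.73 CPM at day 6. Day 11 replicate 1 was the highest library of abu-8, which had 4.6, 0.797 and 0.374 CPM at day 11, against 0.0136, 0.0157 and 0.0618 CPM at day 6. By share of falls the first 5 classes were tbc (3 of 17), the carboxylesterase class cest (5 of 32), daf (4 of 26), acl (2 of 13) and asp (2 of 14).

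Basement membranes, the sheets of laminin and collagen IV beneath tissues, showed 4 rises among 11 genes tested and no fall. The share of rises was 36.4%, against 12.7% of all genes, and the median log2 difference was 0.60. The laminin alpha gene lam-3 had 26.4, 26.2 and 18.3 CPM at day 11, against 7.78, 5.24 and 8 CPM at day 6 (log2 difference 1.75, SE 0.29, adjusted p = 0.00023). The second laminin alpha gene epi-1 had 31.1, 45.1 and 24 CPM, against 10.5, 14.3 and 12.3 CPM, and the gamma gene lam-2 had 33.6, 42.5 and 24 CPM, against 13.9, 15.4 and 14.8 CPM. The peroxidasin gene pxn-2, whose product crosslinks collagen IV, was the fourth. The libraries of the 2 days did not overlap for any of them, and only the lam-3 call held in all 6 fits with a library left out. The exons of epi-1 and pxn-2 overlap those of K08C7.4 and K09C8.8.

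Among signalling peptides, the insulin-like genes held a share of rises of 35.1%, against 12.7% of all genes. Insulin-like peptides, which bind the receptor DAF-2 as agonists or antagonists, rose in 13 of 37 tested (of 39 in the table) and fell in none (median log2 difference 0.96). The insulin-like gene ins-2 had 8.82, 6.73 and 11.7 CPM at day 11, against 1.88, 2.21 and 1.67 CPM at day 6 (log2 difference 2.24, SE 0.37, adjusted p = 0.00023). The days were also fully apart for ins-34, at 15, 12.77 and 18.1 CPM at day 11, against 6.91, 6.67 and 6.7 CPM at day 6, and for ins-8, at 2.23, 0.763 and 3.04 CPM, against 0.49, 0.314 and 0.247 CPM. The exons of ins-34 overlap those of nkcc-1. The gene ins-20 had 0.144, 0.101 and 0.516 CPM at day 11, while the day 6 libraries held 0.00681, 0 and 0.0137 CPM, which is 3 or fewer counts in all, so no fold is given. The others were ins-3, ins-4, ins-7, ins-11, ins-17, ins-18, ins-23, ins-29 and ins-31. Of the 13 calls, 4 held in all 6 fits with a library left out, and the count was lowest, at 5, without BRE day 11 replicate 3.

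Among 24 regulators of the insulin pathway and of lifespan, pqm-1 and pha-4 rose (8.33%, against 12.7% of all genes). The pha-4 call held in 2 of the 6 fits with a library left out. The zinc finger factor gene pqm-1, whose product acts in opposition to DAF-16, had 39, 43.9 and 62.1 CPM at day 11, against 17.1, 18.7 and 23.4 CPM at day 6 (log2 difference 1.29, SE 0.28, adjusted p = 0.00244). The days did not overlap. Among 20 targets activated by DAF-16, spp-12 rose and the lysozyme gene lys-8 fell (5% each way, against 12.7% and 2.23% of all genes). Among 7 genes of the repressed class, dod-19 rose and dod-22 fell (14.3% each way).

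Neuropeptide genes rose in small numbers. Of 31 FMRFamide-like peptide genes 5 rose and none fell, and of 71 genes named nlp 9 rose and 1 fell, shares near the background of all genes. The gene flp-15 had 7.05, 7.6 and 6.54 CPM at day 11, against 1.47, 3.65 and 2.36 CPM at day 6, and nlp-48 had 5.34, 5.04 and 8.75 CPM, against 1.21, 1.41 and 1.39 CPM. The gene that fell, nlp-56, had 1.01, 1.19 and 1.27 CPM, against 2.3, 2.1 and 2.21 CPM. The FMRFamide-like gene flp-23 had no counts at day 6 and up to 0.054 CPM at day 11. Of 24 general neuronal genes, 3 rose, a share of 12.5% that is close to the 12.7% of all genes. They were the synaptotagmin gene snt-1, the tyrosine hydroxylase gene cat-2 and the vesicular glutamate transporter gene eat-4. Each of these 3 calls held in 1 of the 6 fits with a library left out.

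Gene classes with many genes of sensory cilia held many rises. The classes bbs, che, dyf, ift, mks and osm hold many genes of the transport machinery and the base of cilia. Their members were taken by symbol, so not all need be ciliary genes. These classes were picked after their values were seen and were not tested as a group. Of 47 tested, 22 were higher at day 11 and none was lower, with a median log2 difference of 0.81 (46.8% higher, against 12.7% of all genes). With 1 library left out the rises numbered 13 to 16, fewest without BRE day 6 replicate 1, and 10 held in all 6 fits. On the other diet, 20 of the 22 were also higher at day 11 on OP50. The dendrite anchor gene dyf-7 (chromosome X, 9698659 to 9701732) stood at 5.58, 5.69 and 6.70 CPM at day 11, against 1.02, 1.16 and 1.39 CPM at day 6 (log2 difference 2.33, SE 0.26, adjusted p = 1.6e-06). The transition zone gene mks-3 had 0.441, 0.682 and 0.509 CPM, against 0.102, 0.0942 and 0.124 CPM. The intraflagellar transport genes che-13 (log2 difference 1.79) and osm-5 (1.48) and the BBSome gene bbs-9 (1.32) also rose. The gene daf-19, which encodes the RFX factor that switches on ciliary genes, fell, at 31.2, 35.7 and 22.7 CPM at day 11, against 46.6, 48.0 and 44.8 CPM at day 6 (log2 difference -0.64, adjusted p = 0.00975). The summed level of the 47 genes overlapped between the days, at 166 to 230 CPM at day 11, against 181 to 210 CPM at day 6.

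Male-type sensory genes stood at very low levels. Of 9 tested, 4 rose (44.4%, against 12.7% of all genes) and none fell. The summed level of the 9 genes was 1.62 to 1.72 CPM at day 11, against 0.749 to 1.18 CPM at day 6. The polycystin gene lov-1 had 0.342, 0.311 and 0.134 CPM, against 0.0272, 0.0157 and 0.0412 CPM, and its partner pkd-2 had 0.144, 0.189 and 0.106 CPM, against 0, 0.0392 and 0.00687 CPM. The gene cwp-3 had no count at day 6. The exons of lov-1 overlap those of ZK945.8.

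Among transcription factors, nuclear hormone receptors rose in 55 of 246 tested (of 269 in the table) and fell in 1, nhr-71, a share of rises of 22.4%, against 12.7% of all genes. The receptor gene nhr-67, which acts in neurons and in the uterine anchor cell, had 8.6, 6.96 and 7.56 CPM at day 11, against 0.967, 1.33 and 0.934 CPM at day 6 (log2 difference 2.84, SE 0.33, adjusted p = 2.9e-06). The receptor gene nhr-172 had 2.2, 2.05 and 2.76 CPM, against 0.17, 0.173 and 0.206 CPM, and nhr-43 had 4.93, 7.82 and 5.53 CPM, against 1.56, 1.19 and 1.46 CPM. In each of the 3, all day 11 libraries were above all day 6 libraries. Of the 55 rises, 23 held in all 6 fits with a library left out, and the count was lowest, at 28, without BRE day 6 replicate 1 or 2.

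Defence genes split by family. The 10 tested genes that depend on PMK-1 had a median log2 difference of -1.46. Their summed level was 79.2 to 201 CPM in the day 11 libraries, against 221 to 319 CPM in the day 6 libraries. Of the 10, 4 fell (40%, against 2.23% of all genes) and none rose. Besides irg-4 and dod-22 these were clec-85, with 9.5, 16.3 and 14.2 CPM at day 11, against 46.9, 52.9 and 40 CPM at day 6 (log2 difference -1.81, SE 0.24, adjusted p = 2.2e-05), and K08D8.5, with 2.19, 2.12 and 2.9 CPM, against 8.7, 9.93 and 10.1 CPM. All 4 calls held in all 6 fits with a library left out. The exons of clec-85 overlap those of Y54G2A.40.

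Antimicrobial peptides of the cnc, abf, spp, nlp and fip families went mostly the other way. Of 95 listed, 73 were tested, 16 rose and 1, spp-17, fell (21.9% and 1.37%, against 12.7% and 2.23% of all genes), with a median log2 difference of 0.73. The rises numbered 8 without BRE day 6 replicate 2. The 73 genes had a summed level of 1584 to 3710 CPM at day 11, against 1221 to 1445 CPM at day 6. Besides spp-9, spp-12 and spp-21 they held nlp-27, an epidermal peptide gene induced by fungal infection and wounding, at 83.5, 102 and 224 CPM at day 11, against 30.4, 38.7 and 49.7 CPM at day 6, and the defensin-like gene abf-1, at 2.74, 1.99 and 3.16 CPM, against 1.12, 0.965 and 1.28 CPM. Of the 16 rises, 6 held in all 6 fits with a library left out.

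C-type lectins, of which 176 of 240 were tested, divided into 17 rises (9.66%, against 12.7% of all genes) and 13 falls (7.39%, against 2.23%). The rises numbered 10 without BRE day 6 replicate 2 or 3. The lectin gene clec-78 had 11.4, 11.9 and 4.56 CPM at day 11, against 1.34, 0.518 and 1.4 CPM at day 6, and clec-5, which also rose, had 26.8, 28.7 and 44 CPM, against 14.2, 11.6 and 14.1 CPM. Among the falls, beside clec-85, the clec-209 locus with the identifier WBGene00018910 had 0.09, 0.513 and 0.191 CPM at day 11, against 2.6, 1.58 and 3.88 CPM at day 6 (log2 difference -3.32, SE 0.59, adjusted p = 0.00055). Another locus of chromosome V carries the same symbol and has the same exon length, so the split of reads between them is uncertain. Of 15 lysozyme genes, lys-8 fell and ilys-2 rose (6.67% each way, against 2.23% and 12.7% of all genes). The gene lys-8 had 62.7, 81.2 and 69.6 CPM at day 11, against 176, 196 and 148 CPM at day 6 (log2 difference -1.28, SE 0.25, adjusted p = 0.00125), and ilys-2 had 13.9, 25.6 and 27 CPM, against 8.57, 6.17 and 2.89 CPM. The exons of lys-8 overlap those of C17G10.13.

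Many pals genes are induced by microsporidia and virus in the intracellular pathogen response. Of 36 tested, 13 rose (36.1%, against 12.7% of all genes) and none fell (median log2 difference 1.59). Both of the paired regulators of this response were among them: pals-22, which holds it down, had 3.06, 2.25 and 3.4 CPM at day 11, against 1.83, 1.39 and 1.29 CPM at day 6, and pals-25, which switches it on, had 3.9, 3.57 and 6.17 CPM, against 1.98, 1.83 and 1.8 CPM. The gene pals-27 had 2.49, 2.8 and 1.53 CPM, against 0.647, 0.416 and 0.625 CPM. None of these overlapped between days. Of the 13 calls, 4 held in all 6 fits with a library left out, and the count was lowest, at 4, without BRE day 6 replicate 2. F-box A genes, putative substrate adaptors of ubiquitin ligases, rose in 27 of 156 tested and fell in none, 17.3% against 12.7% of all genes, with 12 rises without BRE day 6 replicate 1 and 10 held in all 6 fits. Among them fbxa-24 had 11.6, 15.2 and 22.6 CPM at day 11, against 3.61, 4.92 and 3.61 CPM at day 6.

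**Figure D3:**
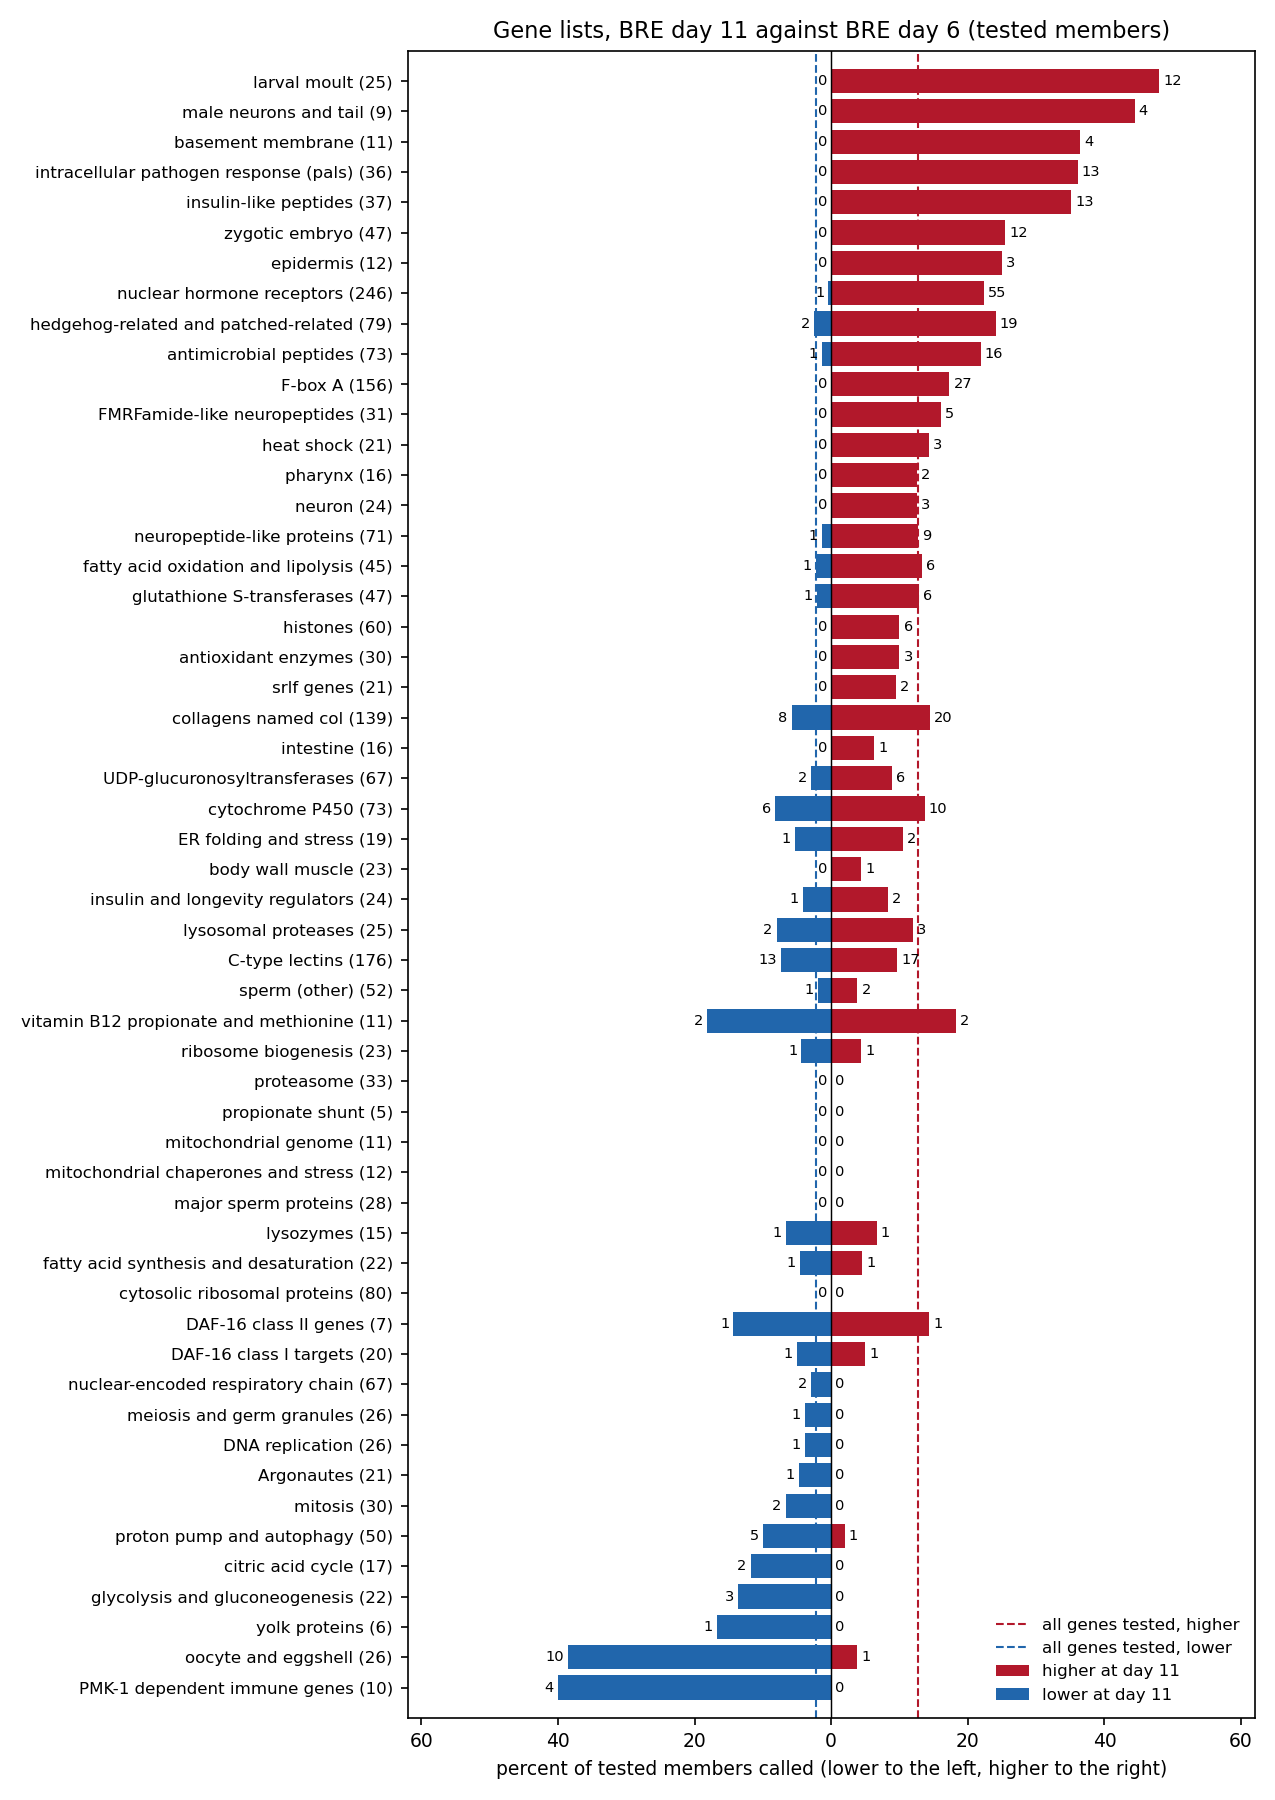
For each of 54 gene lists, the percent of its tested members called lower (left of 0) and higher (right of 0) in BRE day 11 against BRE day 6 worms, with dashed lines at the 2.23% and 12.7% of all tested genes. Larval moult genes reach 48% higher with none lower, while PMK-1 dependent genes and oocyte and eggshell genes reach 40% and 38.5% lower.

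Genes that oocytes and early embryos use held many falls. Of 26 oocyte and eggshell genes 10 fell (38.5%, against 2.23% of all genes) and 1, the caveolin gene cav-1, rose. The median log2 difference of the 26 was -0.45. The RNA-binding protein gene spn-4 had 1781, 1908 and 1472 CPM at day 11, against 2465, 2320 and 2344 CPM at day 6 (log2 difference -0.47, SE 0.10, adjusted p = 0.00319). The oocyte maturation gene oma-1 had 540, 568 and 331 CPM, against 764, 718 and 733 CPM, and the chitin synthase gene of the eggshell, chs-1, had 456, 511 and 381 CPM, against 717, 617 and 676 CPM. Replicate 3 was the lowest of the day 11 libraries in each, and the days did not overlap. The others were pos-1, puf-11, cbd-1, egg-1, egg-2, mex-6 and oma-2. The summed level of the 26 genes was 20910 to 30656 CPM in the day 11 libraries, against 30367 to 35380 CPM in the day 6 libraries. The count of falls was 2 without BRE day 11 replicate 3 and 14 at most with another library left out, and the fit to the 6 libraries alone called none. The exons of spn-4 and chs-1 overlap those of ZC404.15 and T25G3.3.

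Other germline genes gave few calls, and the counts changed with the library left out. Of 26 genes of meiosis and germ granules 1 fell, htp-3, and of 26 DNA replication genes 1 fell, mcm-5. Of 30 mitotic genes 2 fell, hcp-1 and cyb-3, and of 21 Argonaute genes 1 fell, wago-1. In this order the shares of falls were 3.85%, 3.85%, 6.67% and 4.76%, against 2.23% of all genes, and no member rose. The median log2 differences were -0.20, -0.19, -0.23 and -0.16, against 0.21 over all genes. The largest of these falls was that of wago-1 (log2 difference -0.43, SE 0.14, adjusted p = 0.0338). It had 828, 868 and 624 CPM at day 11, against 1102, 1032 and 1004 CPM at day 6. Of these 5 calls only that of mcm-5 held in all 6 fits with a library left out. Those of htp-3, hcp-1, cyb-3 and wago-1 held in 2 each. Without BRE day 11 replicate 2 the falls were 5 for meiosis and germ granules, 9 for DNA replication, 11 for mitosis and 3 for Argonautes, and without BRE day 11 replicate 1 they were 2, 5, 8 and 1.

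Genes switched on in the zygote showed rises and no fall. Of 47 tested, 12 were higher at day 11 (25.5%, against 12.7% of all genes). The median log2 difference was 0.54, or 0.48 with members without counts at day 6 set to the bound of 3 counts over the group. The homeobox gene ceh-51 of the MS lineage had 5.46, 2.73 and 5.15 CPM at day 11, against 0.463, 0.714 and 1.28 CPM at day 6 (log2 difference 2.44, SE 0.34, adjusted p = 3.2e-05). The SKN-1-dependent zygotic gene sdz-35 had 1.85, 1.83 and 2.71 CPM, against 0.211, 0.33 and 0.206 CPM. The others were sdz-1, sdz-6, sdz-8, sdz-16, sdz-18, sdz-24, sdz-27, sdz-33, tbx-35 and end-1. The summed level of the 47 genes was 162 to 270 CPM at day 11, against 142 to 162 CPM at day 6, and no member was at 0 in all 6 libraries. Of the 12 calls, 4 held in all 6 fits with a library left out, and the count was lowest, at 4, without BRE day 6 replicate 2. The part of embryos in these levels was not tested.

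The 5 genes with the most counts were the yolk protein genes vit-5, vit-6 and vit-2, which the intestine transcribes, the translation elongation factor gene eef-1A.1 and the germline RNA helicase gene cgh-1. Of the 6 vit genes, vit-5 fell, at 9870, 12428 and 7812 CPM at day 11, against 23247, 16505 and 16340 CPM at day 6, with no overlap (log2 difference -0.90, SE 0.27, adjusted p = 0.0246). The call was lost without BRE day 11 replicate 1 or 3 or BRE day 6 replicate 1. The genes vit-6 and vit-2 had log2 differences of -0.56 and -0.67 that missed the threshold (adjusted p = 0.183 and 0.111). Together the yolk genes took 2.66%, 2.91% and 2.04% of all counts at day 11, against 4.89%, 3.4% and 3.45% at day 6, without overlap (exact two-sided permutation test, p = 0.1, the smallest possible). Per kilobase of exon, eef-1A.1 stood above vit-5, at 6565 CPM per kilobase at day 11 and 7623 at day 6, while vit-5 stood at 2061 at day 11 and 3839 at day 6. The eef-1A.1 log2 difference was -0.22 (adjusted p = 0.543), and its exons overlap those of F31E3.12.

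Sperm genes held few calls. None of 28 tested major sperm protein genes, of 31 listed, was called, but their summed level was 45.1 CPM in BRE day 11 replicate 1, against 0.891 to 2.6 CPM in the other day 11 libraries and 0.429 to 2.91 CPM in the day 6 libraries. These genes are near copies of one another, so their counts are uncertain. Of 52 other sperm genes 2 rose, ssp-35 and spe-46, and 1 fell, spe-44 (3.85% and 1.92%, against 12.7% and 2.23% of all genes). The gene spe-44 had 19.5, 22 and 17.8 CPM at day 11, against 27, 26.9 and 27.4 CPM at day 6.

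Of the tissue markers of muscle, pharynx and intestine few moved. The shares of rises were 4.35%, 12.5% and 6.25%, against 12.7% of all genes, and none of these markers was called lower. The MyoD homolog gene hlh-1 was the only call among 23 body wall muscle genes, at 2.53, 2.2 and 2.83 CPM at day 11, against 0.538, 0.738 and 0.543 CPM at day 6 (log2 difference 2.06, SE 0.34, adjusted p = 0.0002), and its exons overlap those of B0304.4. Of 16 intestinal genes only act-5, the actin of the microvilli, rose, at 76.4, 95.9 and 75.7 CPM at day 11, against 49.3, 25.6 and 41.7 CPM at day 6. The FoxA factor gene pha-4 and the troponin C gene tnc-2 rose among 16 pharyngeal genes. The hlh-1 call held in all 6 fits with a library left out and the act-5 call in 2 of them.

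Detoxification families had rises at shares near or below that of all genes, and cytochrome P450 genes had falls at 8.22%, against 2.23%. Of 73 cytochrome P450 genes 10 rose and 6 fell, of 67 UDP-glucuronosyltransferase genes 6 rose and 2 fell, and of 47 glutathione S-transferase genes 6 rose and 1 fell. The share of rises was 13.7% for P450 genes and 8.96% for glucuronosyltransferase genes, against 12.7% of all genes, which the share of glutathione S-transferase genes was close to. The P450 rises numbered 6 without BRE day 11 replicate 1 or BRE day 6 replicate 2. The cytochrome P450 gene cyp-13A5 had 60.5, 25.2 and 86.2 CPM at day 11, against 8.05, 7.23 and 13.3 CPM at day 6 (log2 difference 2.59), and cyp-14A5 had 13.3, 17.6 and 24.1 CPM, against 2.43, 3.89 and 4.84 CPM. The glucuronosyltransferase gene ugt-65 fell to 0.279, 0.142 and 0.127 CPM at day 11, against 3, 6.29 and 3.02 CPM at day 6, a log2 difference of -4.50 with a standard error of 0.62 (adjusted p = 2.8e-05). The glutathione S-transferase gene gst-24 had 13.9, 10.2 and 14.7 CPM, against 2.13, 1.81 and 1.81 CPM (log2 difference 2.76). In each of these 4 genes all day 11 libraries lay on one side of all day 6 libraries, and their calls held in all 6 fits with a library left out.

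Lipid and central metabolism genes were called in few members, but the share of falls was above that of all genes in some lists. Of 45 genes of fatty acid oxidation and lipolysis 6 rose and 1 fell (13.3% and 2.22%, close to the 12.7% and 2.23% of all genes). The acyl-CoA oxidase gene acox-1.6 had 8.6, 6.02 and 9.28 CPM at day 11, against 20.5, 36.2 and 20.4 CPM at day 6 (log2 difference -1.69, SE 0.24, adjusted p = 3.2e-05), while the carnitine palmitoyltransferase gene cpt-4 had 22.7, 30.5 and 32.2 CPM, against 10.4, 6.77 and 15.9 CPM. Of 22 glycolysis and gluconeogenesis genes 3 fell, pck-2, hxk-1 and ipgm-1, and of 17 citric acid cycle genes 2 fell, mdh-2 and idhb-1. Of 67 nuclear genes of the respiratory chain 2 fell, sdha-1 and cox-16. These were shares of 13.6%, 11.8% and 2.99%, against 2.23% of all genes, and no member of the 3 lists rose. The median log2 differences were -0.32, -0.27 and 0.06, against 0.21 over all genes. The phosphoenolpyruvate carboxykinase gene pck-2 had 452, 420 and 344 CPM, against 690, 654 and 511 CPM (log2 difference -0.61), and its exons overlap those of suro-1. The malate dehydrogenase gene mdh-2 had 554, 604 and 381 CPM, against 804, 859 and 764 CPM (log2 difference -0.66). The 7 calls were each lost without BRE day 11 replicate 3. Of 11 genes of the vitamin B12 and methionine pathways, cbs-1 and sams-1 rose and pcca-1 and mmcm-1 fell (18.2% each way). Of 22 fatty acid synthesis genes elo-9 rose and fat-7 fell (4.55% each way). With a library left out, the sams-1 call held in 1 of the 6 fits and those of pcca-1, mmcm-1 and elo-9 in 3 each. The calls of cbs-1 and fat-7 held in all 6. None of 5 propionate shunt genes was called.

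Protein quality control genes held few calls. Of 21 heat shock genes 3 rose (14.3%, against 12.7% of all genes), hsp-12.1, hsp-12.2 and hsp-43. The hsp-12.2 call held in none of the 6 fits with a library left out and the other 2 calls in 1 each. Of 19 genes of endoplasmic reticulum folding pdi-6 and xbp-1 rose and ero-1 fell (10.5% and 5.26%, against 12.7% and 2.23% of all genes). Of these, xbp-1 was called in 1 and ero-1 in 2 of those fits. The protein disulfide isomerase gene pdi-6 had 241, 257 and 300 CPM at day 11, against 183, 195 and 178 CPM at day 6 (log2 difference 0.52, SE 0.09, adjusted p = 0.00055). Of 30 antioxidant genes 3 rose (10%), the extracellular superoxide dismutase gene sod-4, sod-5 and the thioredoxin gene trx-1. None of 33 proteasome genes, 12 mitochondrial chaperone and stress genes, 11 genes of the mitochondrial genome or 80 cytosolic ribosomal protein genes was called. Of 50 proton pump and autophagy genes 1 rose and 5 fell by at most 0.39 on the log2 scale. These were shares of 2% and 10%, against 12.7% and 2.23% of all genes, and none of the calls held in all 6 fits with a library left out. Lysosomal proteases had 3 rises and 2 falls among 25 (12% and 8%), with asp-4 at 109, 151 and 179 CPM, against 221, 237 and 265 CPM.

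Summed shares placed cytosolic ribosomal proteins higher at day 11, at 10.3%, 8.83% and 10.4% of all counts, against 8.32%, 8.35% and 7.98% at day 6, although no single gene of them passed the test. Histone genes held 0.104%, 0.0884% and 0.0927%, against 0.0843%, 0.0841% and 0.0809%. As shares neither pair of groups overlapped, and each gave p = 0.1 in the exact two-sided permutation test, the smallest that 3 against 3 libraries allow. With TMM scaling both overlapped: ribosomal protein genes summed to 90721 to 105387 CPM at day 11, against 83231 to 93187 CPM at day 6, and histone genes to 891 to 1065 CPM, against 844 to 943 CPM. Mitochondrially encoded genes held 0.182%, 0.137% and 0.257%, against 0.177%, 0.202% and 0.208%, with overlap (p = 1, same exact permutation test). Histone genes are near copies of one another, and their single calls, 6 rises among 60 (10%, against 12.7% of all genes), are uncertain.

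The same step in worms on OP50 alone gives the same days without the extract. On OP50, 2423 genes were higher at day 11 than at day 6 (12.56% of those tested) and 750 were lower (3.89%). Both steps come from 1 fit with a shared estimate of the spread, and libraries of the same day and number deviated together across the diets, so the steps are not independent. OP50 libraries of the same replicate number deviated together, and with the replicate number as a block 3074 rose and 3097 fell. Of the 2444 rises on BRE, 1595 were also rises on OP50, 65.3% of the BRE list and 65.8% of the OP50 list. Of the 431 falls on BRE, 275 were falls on OP50, 63.8% of the BRE list and 36.7% of the OP50 list. No gene was called in opposite directions. The sign of the OP50 difference was the same for 98.6% of the BRE rises and 99.3% of the BRE falls, against 78.1% of all tested genes. The median log2 difference of the BRE rises was 1.61 on BRE and 1.36 on OP50, and that of the BRE falls -0.58 on BRE and -0.54 on OP50.

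The difference between the 2 diets in this step was tested directly, as the BRE step minus the OP50 step, and no gene was called by edgeR in either direction (0% higher and 0% lower), while 613 genes had an unadjusted p under 0.05. DESeq2 called 5, and edgeR with the libraries of the same day and number as pairs called 0. The median standard error of this difference was 0.423, and its 95% interval lay inside a 2-fold change for 43.5% of genes, so for the others a difference of that size was not excluded. The smallest adjusted p, 0.05 and not under it, was that of fbxa-154. This F-box A gene had 0.261, 0.155 and 0.106 CPM at BRE day 11, against 0.0817, 0.0471 and 0.0824 CPM at BRE day 6, and means of 0.464 CPM at OP50 day 11 and 0.00513 CPM at OP50 day 6. The largest rise of the BRE step at 5 CPM or more, spp-9, had a log2 difference of 7.15 on BRE and 3.11 on OP50. Its OP50 means were 188 CPM at day 11 and 21.7 CPM at day 6, and the difference of 4.04 did not pass the test (adjusted p = 1). Of the 12 largest rises 11 were also called on OP50, spp-12 being the other, and so were all 12 of the largest falls. The irg-4 log2 difference was -4.0 on BRE and -4.63 on OP50, that of asp-14 -2.66 and -4.20, that of ces-2 3.32 and 3.87, and that of dpy-2 3.06 and 2.53.

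By gene list, the larval moult genes gave 12 rises on BRE and 13 on OP50, the pals genes 13 and 20, the nuclear hormone receptors 55 and 47, the insulin-like peptides 13 and 6, and the zygotic genes 12 and 6. The PMK-1 dependent genes gave 4 falls on BRE and 7 on OP50, the oocyte and eggshell genes 10 and 11, and the yolk genes 1 and 3. Antimicrobial peptides gave 16 rises and 1 fall on BRE, and 10 rises and 8 falls on OP50. No member of any list passed the test of the difference between the diets.

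**Figure D4:**
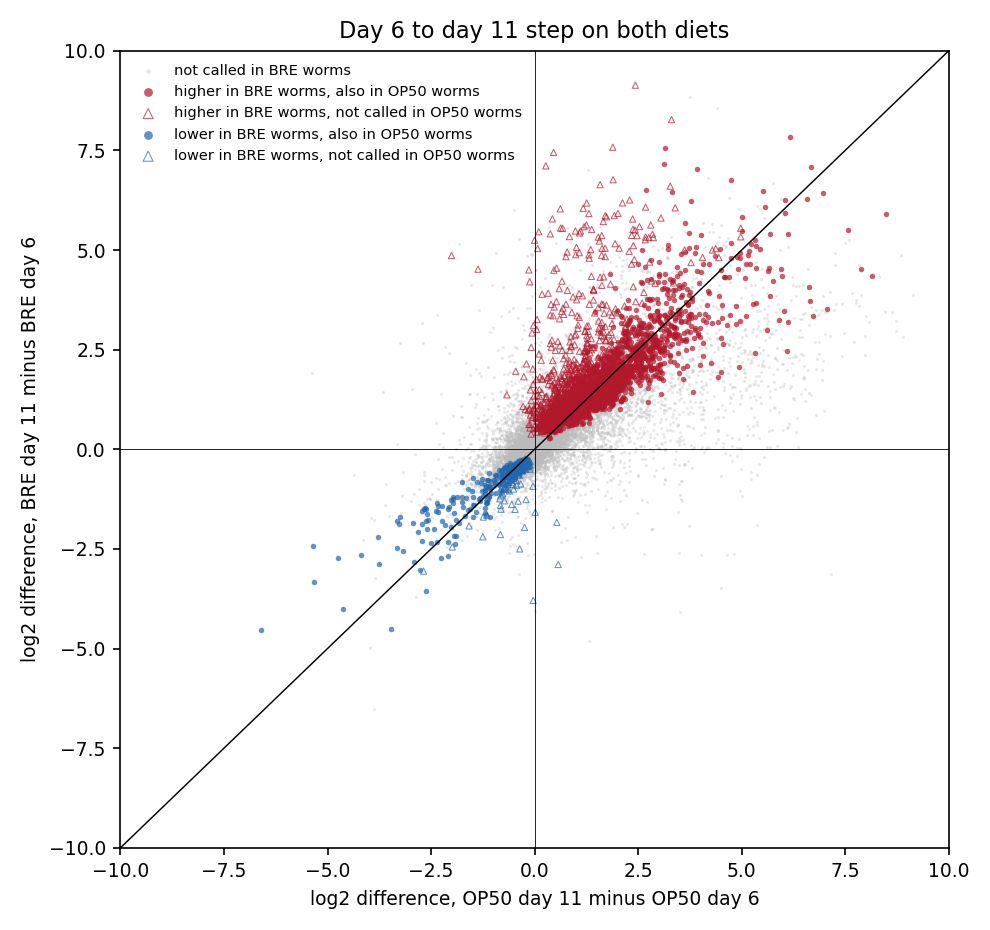
Log2 difference of each tested gene between day 11 and day 6, on BRE on the y axis and on OP50 on the x axis, with filled points for genes called in both and triangles for genes called on BRE only; 2 genes lie outside the axes. The genes called on BRE lie along the diagonal, and 98.6% of the rises and 99.3% of the falls have the same sign on OP50.

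In the later step on the same diet, BRE day 17 against day 15, far fewer genes were called. This step spans fewer days than day 11 against day 6, so the counts are not for like intervals. 13 were higher (0.0674% of those tested) and 225 lower (1.17%). Of the 13 rises 12 were among the 2444 rises between days 6 and 11. Of the 225 falls 35 were among the 431 earlier falls (15.6% of the later list and 8.12% of the earlier), and 8 were among the earlier rises. The sign of the later difference was that of the earlier one for 69.8% of the earlier rises and 83.3% of the earlier falls, against 57.7% of all tested genes. DESeq2 called 141 rises and 435 falls in this later step.

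Some genes that fell by day 11 went on falling. The lysozyme gene lys-8 had means of 6.41 ± 2.67 CPM at BRE day 17 and 22 ± 7.3 CPM at BRE day 15 (SD, n = 3 each), a log2 difference of -1.78 (adjusted p = 0.00046), and clec-85 had 1.05 ± 0.189 CPM at day 17 and 3.42 ± 1.15 CPM at day 15 (log2 difference -1.70, adjusted p = 0.00049). Further falls were called for dod-22 (log2 difference -4.32), K08D8.5 (-3.07), C14C6.5 (-4.39) and vit-5 (-1.12). PMK-1 dependent genes gave 6 falls among 10 in this step, C-type lectins 18 among 176, and antimicrobial peptides 9 among 73 with no rise. None of the 12 largest rises between days 6 and 11 was called here. The transcription factor gene ces-2 had a mean of 28.8 CPM at day 17 and 28 CPM at day 15, and the moult collagen gene dpy-2 had 6.29 CPM at day 17 and 7.69 CPM at day 15.

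**Figure D5:**
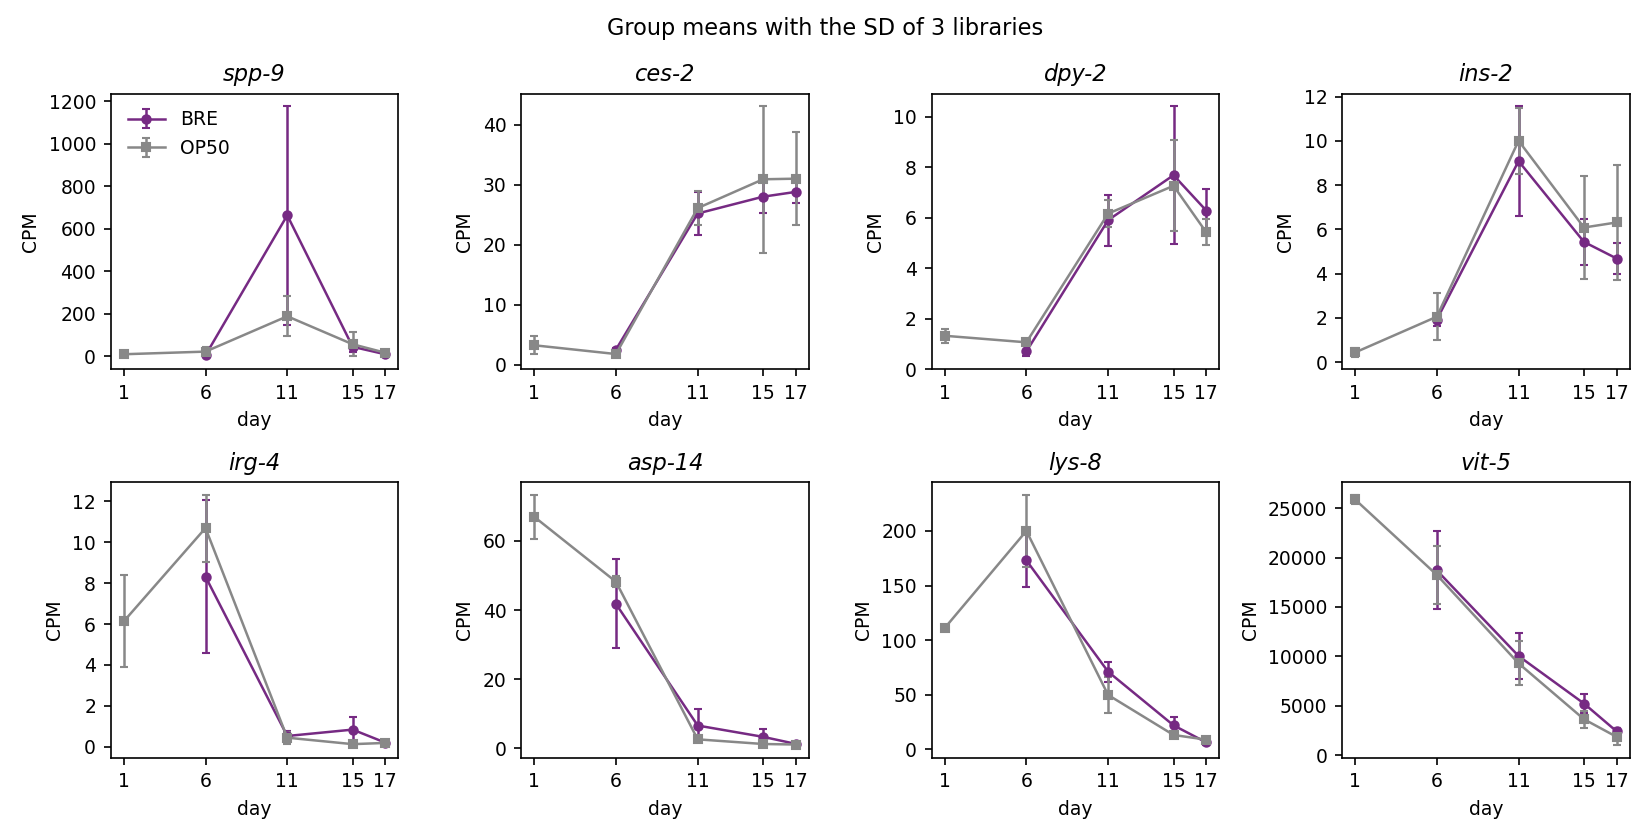
Mean CPM ± SD of 3 libraries (linear axis) of 8 genes by day, BRE as purple circles and OP50 as grey squares. On BRE, ces-2 and dpy-2 are higher at day 11 than at day 6 and near their day 11 level at days 15 and 17, spp-9 is highest at day 11, and lys-8, irg-4, asp-14 and vit-5 are lower at day 11 than at day 6 on both diets.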

How the data were processed

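Whole-body RNA of N2 worms was sequenced in 27 libraries of 9 groups, 3 in each, called biological replicates in the series' design text. Per the labels, 1 µg of total RNA was used for each MGIEasy library, read on a DNBSEQ-T7 instrument. Counts per gene were deposited without normalization in 1 table, and every column was matched to its library by name. The authors' tools, per the submitters' processing notes, included HISAT2 2.0.5 and SAMtools 1.7 beside FastQC, Trimmomatic and featureCounts. The sources used here give no parameters, strand setting or genome build. In the 6 libraries compared, 62.6% to 67.6% of counts between 1 and 20 were even, so a count need not be 1 fragment. Symbols were found for 44113 of 46934 IDs, and coordinates come from the WBcel235 annotation, matched by ID.

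Genes were tested in R 4.3.3 with edgeR 4.0.16 (TMM scaling, filterByExpr with a minimum count of 10, quasi-likelihood fit of 9 group means over 27 libraries), and calls were made where the p adjusted by Benjamini-Hochberg was under 0.05, over the 19290 genes tested. Levels (CPM) are counts scaled by TMM-adjusted library totals, and log2 differences use edgeR's fitted values. Alternatives were DESeq2 1.42.0, other scalings, no filter, fits to the compared groups alone, replicate blocks and leaving out each library. Same-numbered libraries deviated together on OP50 (correlations 0.302, 0.154 and 0.232), and across diets at day 11 (0.498, 0.412 and 0.218) and day 6 (0.221, 0.194 and 0.307), though the labels do not say what a number marks. BRE replicate libraries of days 11 and 6 differed by more than sampling noise, so none was counted as a copy.

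Members, gene lists and tests were chosen with earlier results of these data known. Genes were named by rule: the 12 largest rises and falls with a class symbol (adjusted p under 0.05, at least 2-fold, at least 5 CPM in 1 group, no overlap), 3 of each without one, the 5 with most counts, up to 4 per list by adjusted p, and the 6 smallest p of the difference between diets. Of the listed symbols, 11 had no row in the table. Of the tested genes, 4120 have exons that overlap another tested gene. No sequences are shown, and 1 result among the insulin pathway and lifespan regulators is not reported here.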

Additional observations from a re-analysis of the deposited data

How the results depend on the processing

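For BRE day 11 against day 6, the 2875 calls (2444 higher, 431 lower) became 1299 (1147 and 152) when only the 6 libraries compared were fitted. RLE scaling gave 730 falls, DESeq2 1051, and a 2-fold minimum 118. Leaving out 1 library gave 1663 to 2955 calls, 1366 to 1941 rises and 256 to 1014 falls; rises were fewest without BRE day 6 replicate 1, and falls fewest without BRE day 6 replicate 3 and most without BRE day 11 replicate 2. With a replicate block the calls were 1502 (1282 higher, 220 lower). BRE libraries of the same number at days 11 and 6 share only a number (correlations 0.0177, 0.189 and 0.0399). On OP50 the falls were 247 with a 2-fold minimum, 455 with upper-quartile scaling and 430 to 658 with 1 library left out, and the replicate block gave 6171 calls, 3097 of them falls.

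For the difference between diets, DESeq2 called 5 genes (3 higher, 2 lower), edgeR without the filter 1 (lower), and leaving out 1 library 0 or 1. A replicate block within each day, chosen after seeing the data, called 0. For BRE day 17 against day 15, DESeq2 called 576 genes (141 higher, 435 lower), and the replicate block 392, 154 of them rises. The 13 rises became 3 with a 2-fold minimum, 25 with RLE, 22 with upper-quartile scaling and 60 in the fit of the groups alone. With 1 library left out they ranged from 2 to 13, the falls from 97 to 218 and all calls from 102 to 220, fewest without BRE day 17 replicate 1. The day 11 minus day 6 difference in the mitochondrial share of counts ranged from -0.0358 to 0.0241 percentage points with 1 library left out and changed sign. The causes were not tested. Log2 differences of all 2875 calls kept their sign under DESeq2, RLE and upper-quartile scaling.

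Groups of 3 libraries, an unknown extract dose and an unknown strand setting limit these results. Genes under 0.185 CPM rest on few counts, and low near-copies such as histones and sperm proteins are uncertain.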

Other observations

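Long intergenic RNA genes held more rises in the BRE step, as a share, than other kinds of gene with over 100 tested. Of 112 long intergenic RNA genes tested, 23 were higher at day 11 (20.5%) and none lower, and of 359 genes annotated only as noncoding RNA 45 were higher (12.5%) and none lower. Of 1051 pseudogenes 137 were higher (13%) and 10 lower, shares of rises near the 12.7% of all genes. Of 17659 protein-coding genes 2228 were higher and 421 lower. On OP50 the long intergenic RNAs gave 14 rises and 1 fall.

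By chromosome, 16.8% of the protein-coding genes tested on X were higher at day 11 (424 of 2526, with 77 lower) and 15.3% of those on V (605 of 3959, with 100 lower). The other autosomes ran from 9.53% to 11.9%. Gene levels were not matched between chromosomes. These groupings were looked at after the values were seen. In windows of 500 kb with at least 10 tested genes, of which there were 204, the most falls were 8, in 2 windows. The first, on chromosome IV from 12500001 to 13000000, held C32H11.4, K08D8.5, K10D11.2, clec-186, dod-22, irg-6, let-99 and vha-7 among 92 tested genes, with 12 rises, and 11 of its genes fell on OP50. The second, on X from 12000001 to 12500000, held the carboxylesterase genes cest-7, cest-8 and cest-9.2 with col-181, cdf-2, lyst-1, C04B4.2 and W06D11.3 among 78, with 14 rises, and 11 of its genes also fell on OP50. The window with the most rises, 35 of 125 (28%), was on V from 7500001 to 8000000.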
